A study of Mus musculus with 2 samples.

Results

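The Kelch-like (Klhl) and Kbtbd genes encode proteins with a BTB domain and kelch repeats that bring substrates to cullin-3 ubiquitin ligases. The members were all probe sets with 1 gene symbol made of Klhl or Kbtbd and a number, which gave 75 probe sets of 42 genes (33 Klhl and 9 Kbtbd genes) among 18193 genes on the array. The members were selected on their names, but with results of these data known, and the family was chosen in part by the high Klhl13 intensity in shLrrfip1a and by the values of its muscle members. The members' differences are therefore given as a description, with no test. Another 4 genes with such names in the mouse gene table, Klhl3, Klhl31, Klhl34 and Klhl38, had no probe set with that single symbol in the platform annotation and were not analysed here.

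The cells were C2C12, a mouse myoblast line that fuses into myotubes when serum is lowered. They were grown with 10% fetal bovine serum and then kept for 5 days in 2% horse serum before total RNA was taken. One group carried a short hairpin against Lrrfip1 (shLrrfip1a) and the other the control hairpin that the labels spell shLCUI, in the same line and medium. Each group was read on 1 Affymetrix array, and only 1 hairpin against Lrrfip1 was used, so the spread between cultures is unknown and no difference can be tested. The labels say no more about how the hairpins were delivered or whether the cells were pools or clones.

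In a cullin-3 ligase, the BTB domain of the adaptor binds the cullin and the kelch repeats bind the substrate, while the RING protein Rbx1 recruits the ubiquitin-loaded enzyme. Attachment of Nedd8 switches the cullin on, and the COP9 signalosome removes it. Several members are muscle proteins. Variants of KLHL40, KLHL41 and KBTBD13 cause nemaline myopathy in people, and KLHL40 and KLHL41 stabilise the thin filament proteins nebulin and leiomodin, an unusual role for a ligase adaptor.

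Promoter sequence is shown for the member with the largest difference, Klhl13, and for the muscle members Klhl40 and Klhl41, because all 3 are described below and E-boxes (CANNTG) are the sites that myogenic factors recognise. The sequences are RefSeq, GRCm38.p6, 5′ to 3′ on the gene's strand. Each is the stretch of the most upstream window that lies before the annotated gene, and capitals mark E-boxes.
Klhl13, chrX:23365162-23365332, minus strand: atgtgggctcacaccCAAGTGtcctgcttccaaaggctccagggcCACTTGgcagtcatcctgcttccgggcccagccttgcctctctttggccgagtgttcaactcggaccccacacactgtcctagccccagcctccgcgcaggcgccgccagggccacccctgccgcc
Klhl40, chr9:121777357-121777498, plus strand: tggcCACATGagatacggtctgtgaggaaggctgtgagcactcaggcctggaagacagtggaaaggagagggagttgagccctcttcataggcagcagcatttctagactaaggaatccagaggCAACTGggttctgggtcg
Klhl41, chr2:69669870-69670119, plus strand: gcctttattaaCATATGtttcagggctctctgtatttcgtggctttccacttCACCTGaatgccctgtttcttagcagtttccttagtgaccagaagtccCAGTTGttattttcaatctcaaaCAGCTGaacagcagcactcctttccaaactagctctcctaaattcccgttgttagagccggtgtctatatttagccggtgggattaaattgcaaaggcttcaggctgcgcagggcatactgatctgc

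The full windows run from 250 bases before to 50 bases after a transcript start and were searched on both strands. The Klhl13 window held 3 E-boxes, of which 2 lie in the stretch shown, and the Klhl40 window held 4, of which 2 are shown. All 4 E-boxes of the Klhl41 window are shown. An E-box occurred in 72.3% of all 32851 windows of the table, so its presence does not set these genes apart. The form CAGCTG, which is also counted among the E-boxes, occurred once in each of the 3 windows and in 16.3% of all windows. It lies within the stretch shown for Klhl41 and outside the stretches shown for Klhl13 and Klhl40. The Klhl41 window also held 1 match to the MEF2 box, found in 3.19% of all windows, and the other 2 held none. Klhl13 has 5 annotated windows, with a G and C content of 69.0% in the one shown and 34.0% in the most downstream one, and which start the cells used was not resolved by the array. The most downstream Klhl13 window held no CAGCTG.

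The values are the authors' deposited probe-set intensities on a linear scale. A difference is log2(intensity + 16) of shLrrfip1a minus that of the control, which understates the change of dim genes, and a difference of 1 is 2-fold on that scale. Each gene is represented by its brightest probe set and counted when its mean over both arrays (taken on the log2 scale) exceeded that of the middle probe set on the array, an intensity of 52.5. The filter kept 29 of the 42 members and 11439 genes in all. Intensities of different probe sets depend on the probes and are not compared between genes.

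The targeted gene, Lrrfip1, read 62.2% to 70.6% of the control intensity over its 3 probe sets, so the transcript was reduced but largely present. All 6 myotube markers examined lay above the filter in both groups. Their summed intensity, to which Acta1 gave the most (5220 and 5586), was 11293 in shLrrfip1a and 12465 in the control. Myog (-0.38), Des (-0.23), Acta1 (-0.10) and Tnnt3 (-0.09) were lower in shLrrfip1a, and Ckm (0.38) and Myh3 (0.04) were higher. Of 6 fibroblast markers, all above the filter, Dcn was far higher in shLrrfip1a (3497 against 260). The others differed by less than 0.5 on their brightest probe sets. Col1a1 was lower on both of its probe sets, with differences of -0.42 and -0.51. The summed intensities were 20164 and 17358, and the higher sum in shLrrfip1a came from Dcn. None of 3 adipocyte markers with a probe set passed the filter (summed intensities 86.6 and 83.5), while 2 of 4 macrophage markers (241 and 236) and 2 of 3 neuronal markers (107 and 130) did. Of 4 endothelial markers (197 and 115) 1 passed, Kdr, at 118 against 48.0 (1.07). Its control value lay under the filter level, so Kdr passed only through the shLrrfip1a array. Pecam1, Cdh5 and Tek were below the filter. Of 4 myoblast markers, summing to 1748 and 1713, 3 passed and went opposite ways. Myod1 read 894 against 602 (0.56), Myf5 82.8 against 159 (-0.83) and the proliferation marker Mki67 749 against 881 (-0.23), while the satellite cell factor Pax7, below the filter, read 22.6 against 70.4. A change in the mix of cells and a change in RNA per cell cannot be told apart in such samples, and the part of these markers in the values below was not tested.

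Across the 29 members above the filter, 16 were higher and 13 lower in shLrrfip1a, with a median log2 difference of 0.01 against 0.00 for all 11439 genes. The higher side held 55.2% of the members and 50.7% of all genes. One member, Klhl13, was at least 2-fold higher, and none was at least 2-fold lower. The same size was reached by 0.664% of all genes in the higher and 0.691% in the lower direction. Klhl13 was known to be high when the family was chosen, so its count beside these shares is a description only. At 1.5-fold, Klhl13 was the 1 member higher and Klhl30 and Klhl24 were the 2 lower, beside 2.34% and 2.47% of all genes. Within 0.25 of no difference lay 17 of the 29 members, 58.6%, beside 70.4% of all genes, and within 0.5 lay 26, 89.7%, beside 92.6%. The SD over the members was 0.63, and 0.30 without Klhl13, beside 0.32 over all genes.

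**Figure D1:**
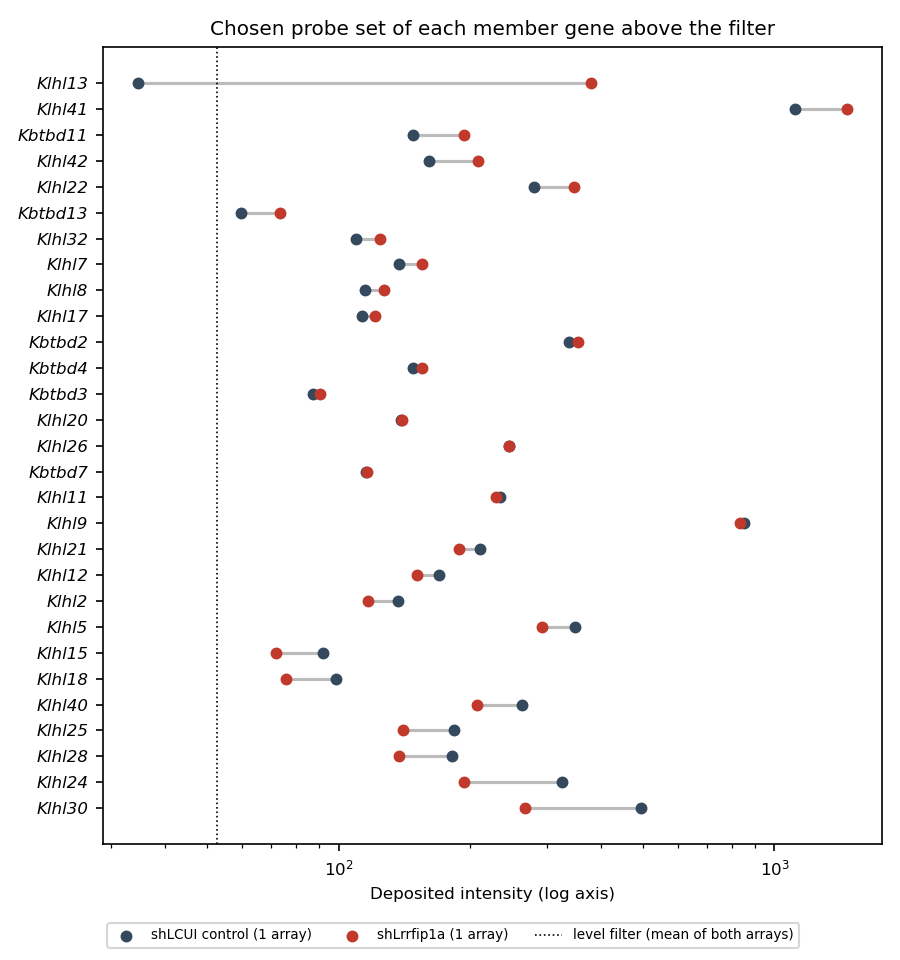
Deposited intensity (log axis) of the brightest probe set of each of the 29 member genes above the filter, on the shLrrfip1a array and the control array, 1 array each, ordered by log2 difference; the dotted line is the filter level of 52.5 that the mean of both arrays had to pass. Klhl13 spans 34.7 to 380, and at the other end Klhl30 and Klhl24 are lower in shLrrfip1a.

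**Figure D2:**
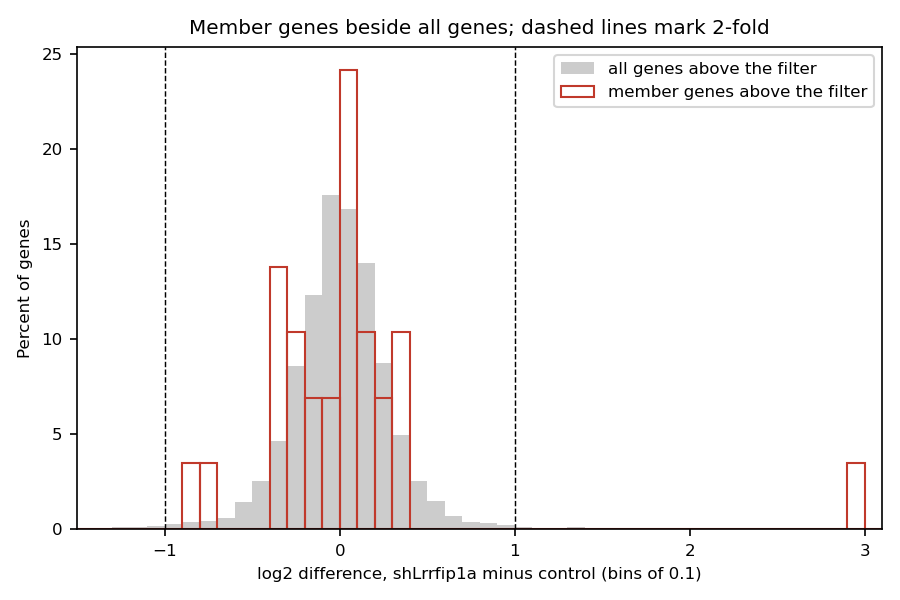
Percent of genes in each bin of 0.1 of the log2 difference, shLrrfip1a minus control, for the 29 members (red outline) and all 11439 genes above the filter (grey); 31 of all genes lie outside the plotted range. All members but Klhl13 lie between the dashed lines that mark 2-fold.

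Among the muscle members, Klhl30 was lower, Klhl40 slightly lower and Klhl41 higher in shLrrfip1a. Klhl30, a family member expressed mainly in striated muscle, read 267 in shLrrfip1a and 493 in the control, 54.2% of the control intensity. Its log2 difference was -0.85. Klhl40 read 207 against 264, a difference of -0.33. Klhl41, also called sarcosin, went the other way at 1464 against 1113, a difference of 0.39. Because the family was chosen in part by the values of its muscle members, no ranks among all genes are given for these 3. Kbtbd13, the third nemaline myopathy gene of the family, read 73.4 against 59.8 on a probe set of the type that can bind related transcripts (difference 0.24), close to the filter. Each of these 4 values rests on 1 probe set above the filter. The muscle members thus held no common direction, and the signs of Klhl30, Klhl40 and Klhl41 were the same under all scalings tried. Under spike-in scaling the 3 differences were -0.70, -0.18 and 0.54. Of the 5 protein-coding genes on each side of Klhl30, most that passed the filter were also lower, by less than Klhl30. Hes6 differed by -0.37, Ube2f by -0.25, Ilkap by -0.14, Scly by -0.14 and Traf3ip1 by -0.13, while Per2 differed by 0.12. Whether these values bear on that of Klhl30 was not tested.

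The thin filament genes tied to nemaline myopathy gave the setting for these values. Of 9 listed genes 8 passed the filter and none reached 2-fold, beside 0.664% of all genes in the higher and 0.691% in the lower direction. Of the 8, 4 were higher and 4 lower, with a median of 0.02. Neb, which encodes the nebulin bound by KLHL40 and KLHL41, was the largest at 285 against 206 (difference 0.44). Slow troponin T, Tnnt1, read 1236 against 1589 (-0.36), and Mypn, of the Z-disc protein myopalladin, read 52.4 against 68.1 (-0.30). Mypn lay near the filter, and its other probe set, below the filter, read 30.25 against 29.88 (0.01). The leiomodin Lmod3, a KLHL40 client, read 252 against 207 (0.27). Lmod2 was level at 359 on both arrays. The KLHL41 partner Nrap, an actin-binding protein of forming myofibrils, read 292 against 276 (0.08).

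Klhl13 stood apart from all other members. Its protein pairs with KLHL9 in the ligase that takes Aurora B off mitotic chromosomes. Its brighter probe set read 380 in shLrrfip1a and 34.7 in the control, and the second read 121 against 48.6. On the control array, whose median was 51.4, both probe sets were in the dimmer part of the range, and in shLrrfip1a, with a median of 53.5, both were in the brighter part. Both probe sets thus passed the filter of 52.5 on their mean only through the shLrrfip1a array. The log2 differences were 2.96 and 1.09. Because the family was chosen in part by this high value, no rank among all genes is given. The ratios of the intensities were 10.9 and 2.49, so the 2 probe sets had the same direction and unequal size. The brighter probe set is of the type that reads several transcripts of 1 gene. With pseudocounts of 1 and 64 in place of 16, its difference was 3.41 and 2.17. The size of the difference thus depended on the probe set and the pseudocount, while its direction did not.

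The genes around Klhl13 gave little to compare. Of the 5 protein-coding genes on each side in the mouse gene table, Wdr44 was the 1 that passed the filter, at 180 against 190 (difference -0.07). The partner gene Klhl9 was level at 832 against 851 (-0.03), and Klhl21, a further adaptor for Aurora B, read 188 against 211 (-0.15). Aurkb, the mitotic kinase itself, read 138 against 157 (-0.17). Klhl13 was thus higher in shLrrfip1a with no difference of like size in its partner or in Aurkb.

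Klhl24 was lower in shLrrfip1a on every one of its 5 probe sets. KLHL24 targets keratin 14 in skin, and stabilising mutations of it cause a fragile skin disease. The brightest probe set read 194 against 326, a difference of -0.70, and 1.75% of all genes had a lower one. The next 3, all above the filter, differed by -0.32, -0.39 and -0.60. The fifth, dim on both arrays, read 16.6 against 26.8 (-0.39). Krt14 read 85.6 against 65.5 (0.32), near the filter. Of the 5 protein-coding genes on each side of Klhl24, those that passed the filter were slightly higher. They were Yeats2 (0.14), Parl (0.06) and Abcc5 (0.20).

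Klhl28 was lower on all 4 of its probe sets. The 2 above the filter read 137 against 182 and 122 against 172, with differences of -0.37 and -0.45. The 2 below the filter differed by -0.18 and -0.01. Klhl24 and Klhl28 were thus the members with the most probe sets in 1 direction. Klhl24 passed 1.5-fold on some of its probe sets, and Klhl28 on none.

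Other members differed by less, and some probe sets of 1 gene went opposite ways. Klhl25, an adaptor for the translation inhibitor 4E-BP1, read 140 against 184 (-0.36) on its brighter probe set and 100.2 against 91.2 (0.12) on the other. Klhl22, an adaptor for the mitotic kinase PLK1 and for DEPDC5, read 346 against 281 (0.29) and 61.3 against 72.2 (-0.19). Klhl11 read 229 against 235 (-0.03) and 228 against 162 (0.46). For these 3 genes no direction can be given.

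Higher values were seen for Kbtbd11 at 194 against 148 (0.36) and for Klhl42, an adaptor for the microtubule-severing katanin, at 208 against 161 (0.34). Each had 1 probe set above the filter. Among the adaptors with smaller differences were Klhl18, which acts on Aurora A (75.5 against 98.4 on the brighter probe set and 81.1 against 81.3 on the other), and Klhl15, which acts on a subunit of the phosphatase PP2A (71.9 against 92.2). Klhl12, which acts on SEC31 in collagen export, read 152 against 170, and Klhl20, which acts on PML and DAPK1, read 140.0 against 138.9. The actin-associated Klhl2 and Klhl17 read 117 against 137 and 121 against 113.

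All 6 Kbtbd genes above the filter were on the higher side, from 0.00 for Kbtbd7 to 0.36 for Kbtbd11, with a median of 0.07. With median centring, quantile normalization or removal of a loess trend 5 of the 6 were, and with spike-in scaling all 6. The 23 Klhl genes divided into 10 higher and 13 lower, with a median of -0.03. With median centring they divided into 8 and 15, and with spike-in scaling into 14 and 9. Kbtbd2, which controls the level of the PI3-kinase subunit p85alpha, read 354 against 337 (0.07). Kbtbd4 read 155 against 148 (0.06) and Kbtbd3 90.7 against 87.3 (0.05). Kbtbd7, which acts with KBTBD6 on the Rac activator TIAM1, read 116 on both arrays, on a probe set of the type that can bind transcripts of several genes. Of all genes 50.7% were on the higher side, and Kbtbd7, at 0.002, lay under their median of 0.004. Whether the Kbtbd and Klhl genes differ as groups was not tested.

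Of the 29 members, 10 had several probe sets above the filter, and in 7 of them all such probe sets had the same sign. That is 70.0%, beside 60.3% of the 4847 genes of this kind in all. The 7 were Klhl7, Klhl8, Klhl13 and Klhl17, higher, and Klhl18, Klhl24 and Klhl28, lower. Signs near 0 were counted alike in both shares, such as -0.003 on 1 Klhl18 probe set and 0.01 on 1 Klhl17 probe set. That Klhl17 probe set and the brightest of Klhl7 are of the type that can bind transcripts of several genes. The spread between the highest and the lowest probe set of a gene had a median of 0.35, from 0.03 for Klhl7 to 1.88 for Klhl13, beside a median of 0.18 over the 4847 genes. Of the 29 members, 22 differed between the arrays by less than the median of 0.35, which rests on only 10 genes. The share of all genes under 0.35 was not counted, but 70.4% of them lay within 0.25 and 92.6% within 0.5. The count of 22 is thus a description only.

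**Figure D3:**
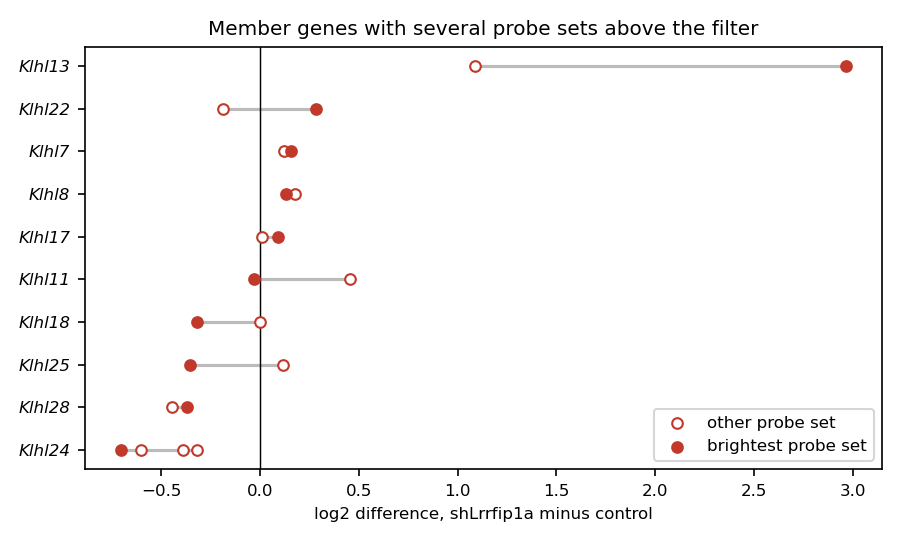
log2 difference, shLrrfip1a minus control, of every probe set above the filter for the 10 member genes with more than 1; filled points are the brightest probe set and open points the others. Klhl24 lies wholly below 0 and Klhl13 wholly above it, while Klhl11, Klhl22 and Klhl25 straddle 0.

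The 13 members below the filter were Klhl1, Klhl4, Klhl6, Klhl10, Klhl14, Klhl23, Klhl29, Klhl33, Klhl35, Klhl36, Kbtbd6, Kbtbd8 and Kbtbd12. Their 17 probe sets read from 1.12 to 55.3, and their differences ran from -0.35 to 0.39. The highest was that of Kbtbd8, an adaptor involved in neural crest specification, at 31.8 against 20.6. No detection calls were used, so these genes cannot be called absent.

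The shared parts of the ligase differed in both directions, by less than 2-fold. Of 22 listed genes of the cullin-3 core and its regulators 21 passed the filter, and 10 were higher and 11 lower with a median of -0.04. None reached 2-fold, beside 0.664% of all genes in the higher and 0.691% in the lower direction. The scaffold gene Cul3 read 753 against 721 on its brightest probe set (0.06) and was higher on all 5, by 0.06 to 0.36. Rbx1, of the RING subunit, read 96.8 against 75.1 (0.31), and Nedd8 read 1742 against 1352 (0.36). Cand1, a cullin exchange factor, read 478 against 385 (0.30), and its other probe set above the filter differed by 0.61. The largest differences were those of Dcun1d1, which helps attach Nedd8 to cullins (114 against 164, -0.47), Uba3, of the Nedd8-activating enzyme (662 against 886, -0.41, lower on all 3 probe sets), and Arih1, a ubiquitin ligase that works with active cullins (288 against 375, -0.36, lower on all 4 above the filter). The differences of the 8 listed COP9 signalosome genes lay between -0.15 and 0.09.

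Of 31 listed genes whose products are reported substrates or partners of members, 29 passed the filter. None reached 2-fold on the deposited scale with the pseudocount of 16, beside 0.664% of all genes in the higher and 0.691% in the lower direction. The 29 divided into 16 higher and 13 lower, with a median of 0.02. Pik3r1, which encodes p85alpha, the substrate of KBTBD2, came closest at 1038 against 517 (0.98), with 0.89, 1.09 and 0.49 on its other 3 probe sets. It went just past 2-fold with a pseudocount of 1 (1.004) and past it with spike-in scaling (1.13). Either setting made 1 of the 29 at least 2-fold higher. Beside it stood 0.839% of all genes with the pseudocount of 1 and 0.997% with spike-in scaling. Insr, the insulin receptor gene, read 127 against 188 (-0.51), and Eif4ebp1, the 4E-BP1 gene, read 1058 against 1442 (-0.44) and was lower on all 3 probe sets. These are transcript levels, whereas the adaptors act on proteins. Of 5 further BTB-kelch genes with other names 4 passed the filter. Ivns1abp read 1159 against 1519 (-0.38, with -0.43 and 0.07 on the others), Keap1, the sensor that restrains NRF2, 238 against 272 (-0.18) and Ipp 100.3 against 103.5 (-0.04), with a list median of -0.11.

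**Figure D4:**
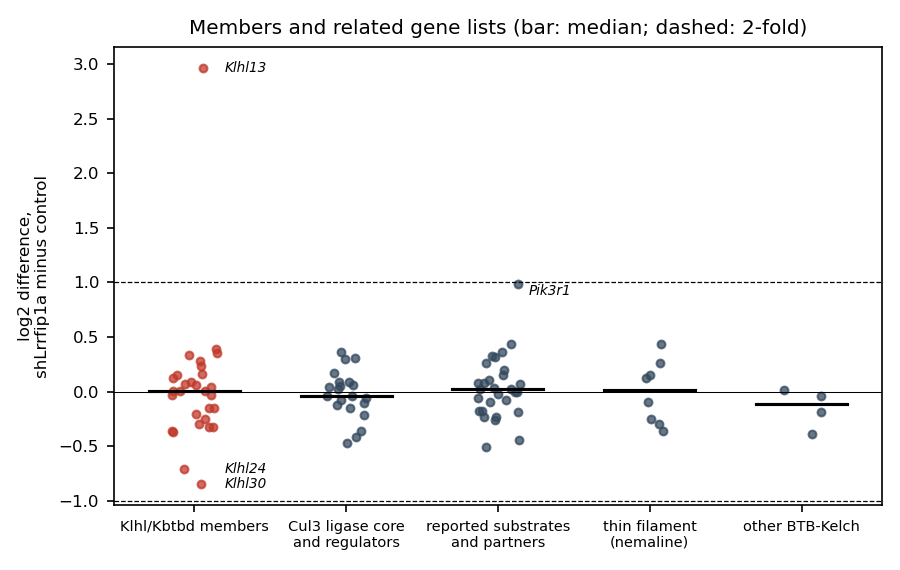
log2 difference, shLrrfip1a minus control, of each gene above the filter (1 point per gene, spread sideways for display) for the 29 members and the related lists of 21, 29, 8 and 4 genes; bars are medians and dashed lines mark 2-fold. Klhl13 is the 1 point past 2-fold, and Pik3r1, at 0.98 here, lies just under it and passes it with spike-in scaling or a pseudocount of 1.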

How the data were processed

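Total RNA of 2 samples was read on Affymetrix mouse arrays, with cRNA prepared from 6 ug per the labels' protocols. For each probe set the authors deposited a linear intensity on either array, from a floor of 1 up to 9165 (shLrrfip1a) and 9861 (control); how probes were summarised and scaled is not stated in the labels. The number of arrays, 1 per group, limits the precision. Of 45101 probe sets, 34945 non-control ones had 1 gene symbol, 932 had several and 9211 had none; all 75 member probe sets matched the GRCm38.p6 gene table by identifier and symbol. The arrays were compared as deposited, with a pseudocount of 16, using pandas 2.3.3, numpy 2.4.6 and statsmodels 0.14.6 under Python 3.11.15, and the procedure was tested on simulated data. The members and lists were chosen with earlier results of these data known. Described in detail are the muscle members, Klhl13 and Klhl9, the 5 largest member differences in each direction, members past 1.5-fold, and in each list the 3 largest; other genes named were chosen after their values were seen. Alternatives were median centring, quantile normalization, loess, spike-in scaling on 45 bacterial and phage probe sets, other filters, pseudocounts, fold sizes, and the mean over probe sets.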

Additional observations from a re-analysis of the deposited data

How the results depend on the processing

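With 1 array per group no array can be left out. No paired analysis was possible because there was a single array in either group. The count of members at least 2-fold higher was 1, Klhl13, under 10 of 11 alternatives and 0 with the 75th percentile filter, which Klhl13's mean level does not pass. The count at least 2-fold lower was 0 under 10 of 11 alternatives and 2 at the 1.5-fold size. Spike-in scaling added 0.15 to every difference. It moved the medians to 0.16 for the members, 0.11 for the cullin-3 core, 0.17 for the substrates and partners and 0.039 for the other BTB-kelch genes, and the other alternatives moved these medians by no more than 0.1. Over its 8 alternatives the Klhl13 difference ranged from 2.03, with the mean over probe sets, to 3.41. Klhl30 ranged from -0.89 to -0.70 and Klhl24 from -0.75 to -0.50 over 9 alternatives each. Of the 11 members described in detail, Klhl9 was the 1 whose sign changed, to 0.12 with spike-in scaling. Over all genes the higher and lower counts were 76 and 79, 114 and 54 with spike-in scaling, 48 and 46 with the 75th percentile filter, 51 and 44 with a pseudocount of 64, 268 and 282 at 1.5-fold, and 28 and 23 at 3-fold.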
